A study of Mus musculus with 20 samples.

Results

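The 31 genes described here are genes that astrocytes of the brain express strongly. They were taken by symbol from a written list, and they are 31 of the 22048 genes counted in each sample. Every one of the 31 was found once in the 2 day table and once in the 4 week table.

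RNA was measured in the arcuate nucleus (ARC), a cell group at the base of the hypothalamus that controls feeding, cut out of brain sections by laser. The mice were male C57BL6/J, 10 weeks old at the start and housed singly, and no transgene or deletion is named for them. The 4 groups of 5 samples were 2 day vehicle, 2 day Cort, 4 week vehicle and 4 week Cort, where vehicle was 1% ethanol in the drinking water and Cort was corticosterone, the main glucocorticoid of rodents, at 75 µg/ml in the same 1% ethanol. The 4 week mice of both groups were also fasted for 16 h and then fed again for 24 h while still on treatment, so that time on Cort cannot be told apart from this feeding schedule, nor from the section mounts, laser system and sequencer, which differed between the 2 day and the 4 week samples. The question of each comparison was which ARC genes differ between Cort and vehicle. Samples are named C01 to C10 within each dataset, after their columns. The study left out 3 samples of each dataset after looking at their expression, which leaves 3 vehicle and 4 Cort samples per dataset. Each comparison was run on these 7 samples and on all 10. Values of single genes are given for the 7 samples, and over all 10 for some genes only. Nothing in the labels states how many mice stand behind a sample, so p-values measure the spread between these samples.

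Astrocytes are glial cells that surround synapses and blood vessels. They take up glutamate and potassium released by neurons, turn glutamate into glutamine, pass water and ions through channels and gap junctions, and break down glucose to lactate. They carry the glucocorticoid receptor, and the gene for glutamine synthetase is a long known glucocorticoid target in glia. In the ARC they border on tanycytes, the glia-like cells that line the third ventricle, which share some of these genes, among them Gja1, Sox9 and Fabp7. Cst3, Apoe and Mertk are also made by microglia.

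The total count per sample was 2487063 to 5748223 in the 2 day dataset and 1065776 to 5196364 in the 4 week dataset. CPM here means counts per 1000000 counts after scaling by edgeR's trimmed mean of M values over the 10 samples of a dataset. The 31 genes summed to 15700 to 19040 CPM in the 7 samples kept at 2 days, and to 26890, 21440 and 21170 CPM in the 3 samples left out, vehicle C07, Cort C08 and vehicle C09. These were the 3 highest sums of the dataset, and 25 of the 31 genes had their highest 2 day value in 1 of these 3 samples. At 4 weeks the sum was 9370 to 12940 CPM in the samples kept. Of the samples left out at 4 weeks, vehicle C01 had the lowest sum of all 10 (6768 CPM), Cort C06 the highest (15430 CPM) and vehicle C05 lay within the range of those kept (12240 CPM). Counts over the members are therefore given for the samples kept and for all 10. In whole tissue, fewer astrocytes and less RNA per astrocyte cannot be told apart.

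Between the groups the sums overlapped. With the samples kept, the sum was 15830 to 17810 CPM in vehicle and 15700 to 19040 CPM in Cort at 2 days, and 9370 to 12220 CPM in vehicle and 10930 to 12940 CPM in Cort at 4 weeks. Genes of tanycytes, 10 in number, summed to 189.8 to 305 CPM in vehicle and 201 to 346 CPM in Cort at 2 days. The 3 samples left out at 2 days had the highest tanycyte sums of that dataset as well, 393.6 to 527.5 CPM. At 4 weeks the tanycyte sum was 956.5 to 1261 CPM in vehicle and 460.2 to 1019 CPM in Cort. Rax, a defining gene of tanycytes, was at 0 in some samples of both datasets. How much of any difference in the astrocyte genes goes with the tanycyte share was not tested.

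**Figure D1:**
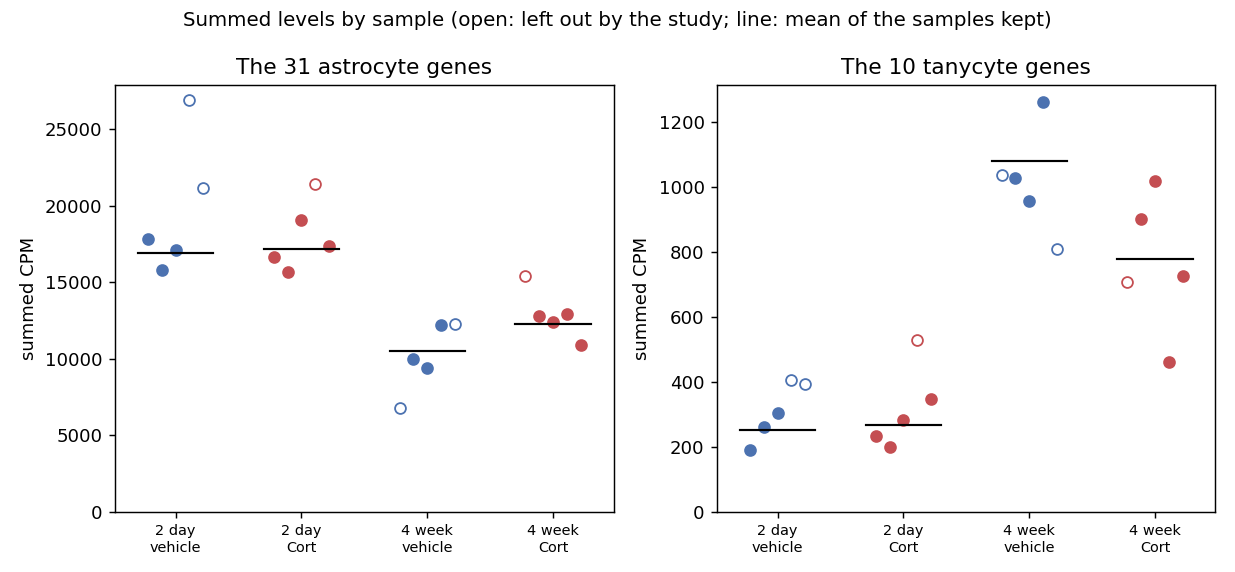
Summed CPM of the 31 astrocyte genes (left) and of the 10 tanycyte genes (right) in each of the 20 samples, by group, on axes that start at 0. Filled points are samples kept by the study, open points are samples it left out, and the line is the mean of those kept; the left panel shows the 3 open points of the 2 day dataset above all filled ones, the highest at 26890 CPM.

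Levels of different genes were compared as CPM per kilobase of exon, with exon lengths from GENCODE vM21 (GRCm38), over the 5 vehicle samples. Cst3, which encodes the secreted protease inhibitor cystatin C, had the highest level at 2 days with a median of 1976 CPM per kb. It was followed by Ndrg2, an astrocyte-enriched gene of the NDRG family, at 990.6 CPM per kb, and Sparcl1, which encodes the synapse-promoting protein hevin, at 515.8 CPM per kb. Apoe, the main lipid carrier of the brain, stood at 421.3 CPM per kb. Aldoc, the brain form of the glycolytic enzyme aldolase, and Slc1a2, the main glutamate transporter, followed at 347.8 and 296.4 CPM per kb. At the low end were Mt3, a metallothionein, at 3.64 CPM per kb, the engulfment receptor gene Megf10 at 3.52 CPM per kb, and Cbs, an enzyme of sulphur amino acid metabolism, at 2.59 CPM per kb. The same 3 genes stayed on top at 4 weeks, and Cbs and Mt3 stayed lowest.

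The 4 week level of the vehicle samples was taken as a ratio of median CPM to the 2 day level. The ratio was below 1 in 26 of the 31 genes, with a median of 0.55. The share over all genes was not worked out, so this count does not set these genes apart. The median vehicle sum of 10 neuronal genes was also lower at 4 weeks (5371 CPM at 2 days, 3803 CPM at 4 weeks). That of the tanycyte genes was higher (305 and 1028 CPM). Cbs and Mt3 are included in the 26 and in the median ratio. Their 4 week medians rest on 0 and 1 counts, under a floor of 3 counts, and no single ratio is given for them. The other ratios ran from 0.137 for Htra1, a secreted protease, to 1.2 for Acsl6, an acyl-CoA synthetase of fatty acid metabolism. The datasets were scaled separately and differ in tissue handling and sequencing, so the ratios are a description of these tables. Aqp4, the water channel of astrocyte endfeet, and Mlc1, a membrane protein of the same endfeet, had ratios of 1.02 and 0.997.

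The members differed in how steady they were. At 2 days the spread within groups of the 7 samples kept, as an SD of log2 CPM, had a median of 0.293 over the 31 members, against 0.463 over all 12309 genes tested. It was smallest for Slc1a3, the other main glutamate transporter, at 0.106, and largest for Mt3 at 0.719. At 4 weeks the median SD was 0.521 over the 29 members tested, against 0.941 over 11211 genes. Members of low level, such as Aldh1l1 (SD 1.76) and Htra1 (SD 1.94), were among the widest.

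**Figure D2:**
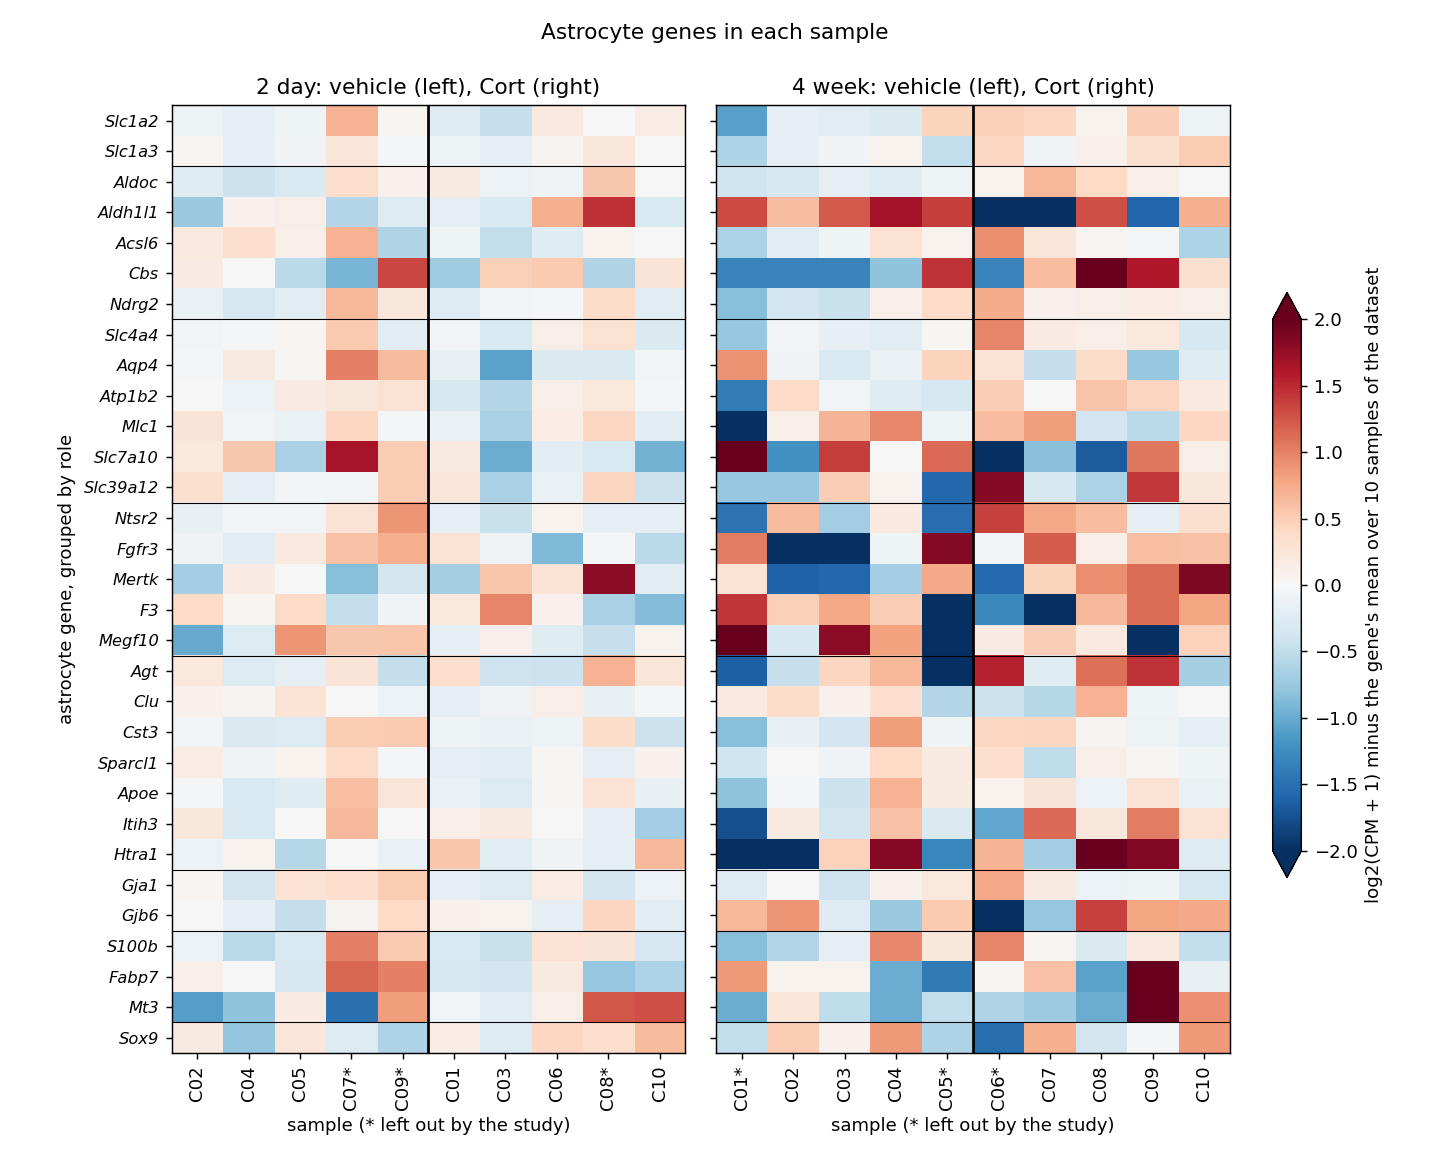
Each of the 31 astrocyte genes (in order of their roles, from glutamate uptake at the top to the transcription factor Sox9 at the bottom) in each sample, as log2(CPM + 1) minus the gene's mean over the 10 samples of that dataset; columns are vehicle then Cort, and a star marks samples the study left out. Vehicle C07 of the 2 day dataset and vehicle C01 of the 4 week dataset stand out as columns, the first high (sum 26890 CPM) and the second low (sum 6768 CPM) in many of the genes.

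Because the receptor for corticosterone binds DNA, the stretches before the gene starts are shown for 5 astrocyte genes: Aldoc, which had the lowest P of the members at 2 days, Glul, the one astrocyte gene outside the 31 that passed the test below, Mertk, which had the lowest P of the members at 4 weeks, and Slc1a3 and Apoe, which hold the receptor's hexamer. They are printed 5′ to 3′ on the gene's strand, from RefSeq (GRCm38.p6), and end before the first annotated transcript base. Capitals mark the hexamer AGAACA or its reverse complement TGTTCT, either of which makes up one side of the palindrome that the receptor pair binds. Aldoc lies at chr11:78322823-78322967 (plus strand), Glul at chr1:153899679-153899928 (plus), Mertk at chr2:128698665-128698914 (plus), Slc1a3 at chr15:8710808-8711057 (minus) and Apoe at chr7:19699189-19699438 (minus).
Aldoc: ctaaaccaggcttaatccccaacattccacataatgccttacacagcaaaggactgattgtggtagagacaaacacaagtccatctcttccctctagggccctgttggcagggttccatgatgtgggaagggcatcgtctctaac
Glul: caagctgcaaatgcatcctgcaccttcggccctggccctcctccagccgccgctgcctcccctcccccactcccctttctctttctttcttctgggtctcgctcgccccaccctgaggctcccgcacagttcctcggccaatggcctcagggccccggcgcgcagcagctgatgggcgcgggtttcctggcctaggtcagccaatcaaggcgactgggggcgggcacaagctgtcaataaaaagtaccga
Mertk: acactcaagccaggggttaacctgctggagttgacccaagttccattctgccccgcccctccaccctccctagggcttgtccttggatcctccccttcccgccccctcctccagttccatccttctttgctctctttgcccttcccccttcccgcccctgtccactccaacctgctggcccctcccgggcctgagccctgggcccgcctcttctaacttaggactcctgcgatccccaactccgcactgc
Slc1a3: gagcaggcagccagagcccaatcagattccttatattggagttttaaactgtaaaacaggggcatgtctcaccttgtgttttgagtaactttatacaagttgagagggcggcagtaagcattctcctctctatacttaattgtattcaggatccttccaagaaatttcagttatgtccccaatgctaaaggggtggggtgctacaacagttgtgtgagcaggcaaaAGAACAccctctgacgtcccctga
Apoe: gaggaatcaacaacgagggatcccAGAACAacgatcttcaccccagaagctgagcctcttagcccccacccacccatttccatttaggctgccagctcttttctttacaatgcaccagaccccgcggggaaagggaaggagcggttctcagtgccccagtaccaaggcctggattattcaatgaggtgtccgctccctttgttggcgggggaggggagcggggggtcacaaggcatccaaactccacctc

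The hexamer begins 24 bases before the RefSeq start of Slc1a3 and 226 bases before that of Apoe. RefSeq windows were at hand for 25 of the 31 members, with 34 windows of 250 bases in all. The others were Aqp4, Atp1b2, Clu, Megf10, Sox9 and Sparcl1. The hexamer was in 4 of the 34 windows (11.8%), those of Slc1a3, Apoe, Cst3 and Acsl6, against 16.1% of all 32851 RefSeq windows of that length. The whole palindrome, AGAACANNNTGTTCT, was in 0 of the 34 and in 3 of all windows. A match is a description of the letters. None of the 4 genes with a match differed between Cort and vehicle at an unadjusted P under 0.05 in the comparisons below, by edgeR with 7 or with 10 samples. Acsl6 was near that threshold at 2 days, lower with Cort. It had a P under 0.05 by DESeq2 with the 7 samples, and by edgeR with upper quartile scaling or without C10.

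After 2 days of Cort the fold changes of the 31 astrocyte genes had a median size of 0.165 on the log2 scale. Over all genes tested it was 0.261. The median standard error (SE) was also smaller, 0.208 over the members and 0.382 over all genes. None of the 31 passed an adjusted P (Padj) under 0.1 by edgeR's quasi-likelihood test with Benjamini-Hochberg adjustment over 12309 genes, of which 0.0650% passed. The lowest Padj of a member was 0.538. By DESeq2 with the same 7 samples 0 members passed as well, with a lowest Padj of 0.217, and 0 passed by limma voom with quality weights on all 10 samples, with a lowest Padj of 0.782. The log2 fold change was above 0 in 15 members and below 0 in 16 (52.1% of all genes were above 0), with a median of -0.02 over the members and 0.018 over all genes. For 24 of the 31 the 95% interval lay inside a 2-fold change in either direction, and for 14 inside a 1.5-fold change. The changes ran from -0.58 for Slc7a10 to 1.01 for Mt3, both genes of low level. Mt3 was at 2.99, 3.88 and 8.54 CPM in the vehicle samples kept and at 7.17, 6.40, 8.22 and 19.9 CPM in Cort. These values overlap. One member, Aldoc, had an unadjusted P under 0.05, where 5.97% of all genes did. The groups did not overlap in 3 members, higher with Cort in Aldoc and lower in Aqp4 and Acsl6, where 6.63% of all genes did not overlap.

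Aldoc (chromosome 11, 78322968 to 78327781) was at 1135, 1002 and 1098 CPM in the 3 vehicle samples kept (C02, C04 and C05) and at 1531, 1246, 1287 and 1344 CPM in the 4 Cort samples kept (C01, C03, C06 and C10). All 4 Cort samples lay above all 3 vehicle samples, with means of 1078 ± 68.6 CPM (SD, n = 3) and 1352 ± 126.1 CPM (SD, n = 4). The log2 fold change was 0.34 (SE 0.10, 95% interval 0.12 to 0.55), or 1.27-fold, with Padj = 0.538 by edgeR. The vehicle samples left out were at 1727 CPM (C07) and 1434 CPM (C09) and the Cort sample left out at 1961 CPM (C08), so the groups overlapped over the 10 samples, and the fitted log2 difference there was 0.21 (interval -0.11 to 0.53, Padj = 0.978 by edgeR).

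Of the other enzymes, Aldh1l1, a folate enzyme used as a marker of astrocytes, was at 17.4, 31.5 and 32.1 CPM in the vehicle samples kept and at 25.95, 23.9, 50.01 and 23.9 CPM in Cort, which overlap, with a log2 fold change of 0.21 (interval -0.59 to 1.01). The annotation has other genes over 13.4% of its exon bases, so its counts are less certain. Ndrg2 was at 3365, 2920 and 3147 CPM in vehicle and at 3084, 3559, 3656 and 3182 CPM in Cort. Its groups overlapped, and it differed by 0.11 on the log2 scale (interval -0.07 to 0.29). Acsl6 and Cbs stood at -0.40 (interval -0.80 to 0.00) and 0.33 (interval -0.56 to 1.22).

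Both glutamate transporters were near their vehicle level at 2 days. Slc1a2 was at 3826, 3572 and 3892 CPM in vehicle and at 3486, 2988, 4702 and 4536 CPM in Cort. The Cort samples lay on both sides of the vehicle samples, and the log2 fold change was 0.07 (interval -0.18 to 0.32). Slc1a3 was at 609.5, 526.6 and 564.9 CPM in vehicle and 552.4, 516.9, 611.7 and 589.5 CPM in Cort, a log2 fold change of 0.01 (interval -0.24 to 0.26).

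Among the genes of ion, water and amino acid transport, all 6 had a log2 fold change below 0 at 2 days with the 7 samples (-0.58 to -0.09), and none had a P under 0.05. Aqp4 was at 155.5, 179.6 and 160.0 CPM in vehicle and at 142.5, 74.8, 129.5 and 152.3 CPM in Cort. All 4 Cort samples lay below the vehicle samples, the highest of them by little, and the log2 fold change was -0.39 (interval -0.83 to 0.04, Padj = 0.865 by edgeR). The size rests in part on Cort C03, the lowest sample: with each sample left out in turn the log2 fold change ran from -0.50 without C10 to -0.21 without C03. The vehicle samples left out had the highest Aqp4 values, 318.9 CPM in C07 and 245.3 CPM in C09, and the Cort sample left out was at 128.6 CPM. Taking all 10 samples, the groups still did not overlap, which 0.801% of all genes showed, and the log2 fold change was -0.74 (interval -1.20 to -0.29, Padj = 0.769). Without C07, a choice made after seeing the data, it was -0.55 in the other 9 samples. Atp1b2, a subunit of the sodium pump, was at 926.7, 859.2 and 1042 CPM in the vehicle samples kept and at 743.6, 619.3, 1008 and 914.8 CPM in Cort. The groups overlapped, with a log2 fold change of -0.19 (interval -0.48 to 0.10).

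Fabp7, a fatty acid binding protein of astrocytes and tanycytes, also had its highest 2 day values in vehicle C07 and C09. It was at 146.0, 136.9 and 109.2 CPM in the vehicle samples kept and at 109.4, 104.1, 154.3 and 88.3 CPM in Cort, which overlap, with a log2 fold change of -0.18 (interval -0.62 to 0.25). C07 and C09 were at 303.7 and 274.9 CPM and Cort C08 at 79.2 CPM. Over the 10 samples the log2 fold change was -0.85 (interval -1.38 to -0.31, Padj = 0.769 by edgeR). These 3 samples also had the highest tanycyte sums, the highest being in Cort C08 (527.5 CPM), which had the lowest Fabp7 value. The part of the tanycyte share in Aqp4 and Fabp7 was not tested.

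The gap junction gene Gja1, which encodes connexin 43, was at 147.5, 111.4 and 175.5 CPM in the vehicle samples kept and at 125.8, 118.9, 160.0 and 133.2 CPM in Cort (log2 fold change -0.10, interval -0.50 to 0.30). S100b, a calcium binding protein, was at 132.6, 98.5 and 116.7 CPM in vehicle and at 116.1, 105.4, 176.8 and 113.8 CPM in Cort (log2 fold change 0.16, interval -0.28 to 0.59). Sox9, a transcription factor of the astrocyte lineage, was at 69.4, 35.1 and 73.2 CPM in vehicle and at 68.5, 50.5, 81.8 and 95.5 CPM in Cort (log2 fold change 0.33, interval -0.27 to 0.94). In all of Gja1, S100b and Sox9 the groups overlapped. Of the receptors, Fgfr3, a growth factor receptor, was at 46.5, 42.3 and 55.9 CPM in vehicle and at 60.3, 46.5, 25.9 and 33.4 CPM in Cort (log2 fold change -0.21, interval -0.87 to 0.46). Mertk, a receptor for the engulfment of synapses and debris, was at 15.2, 27.8 and 24.6 CPM in vehicle and at 15.4, 37.0, 30.4 and 21.1 CPM in Cort (log2 fold change 0.21, interval -0.63 to 1.05). In both receptors the Cort samples lay on both sides of vehicle samples. The 7 secreted proteins ran from -0.16 for Clu, which encodes clusterin, to 0.49 for Htra1, with Cst3 at 0.02 and Apoe at 0.07.

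With all 10 samples of the 2 day dataset, 0 members passed (lowest Padj 0.769 by edgeR, and 0.0167% of the 11983 genes tested passed). The log2 fold change was above 0 in 10 members and below 0 in 21, where 48.1% of all genes were above 0, and its median was -0.142 over the members and -0.016 over all genes. Of the 31, 3 had a P under 0.05 (5.28% of all genes did), lower with Cort in Aqp4 and Fabp7 and higher in Mertk. Mertk was at 88.3 CPM in Cort C08, against 13.4 to 37.0 CPM in the other 9 samples, and the log2 fold change was 0.95 (interval 0.08 to 1.82, Padj = 0.927).

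**Figure D3:**
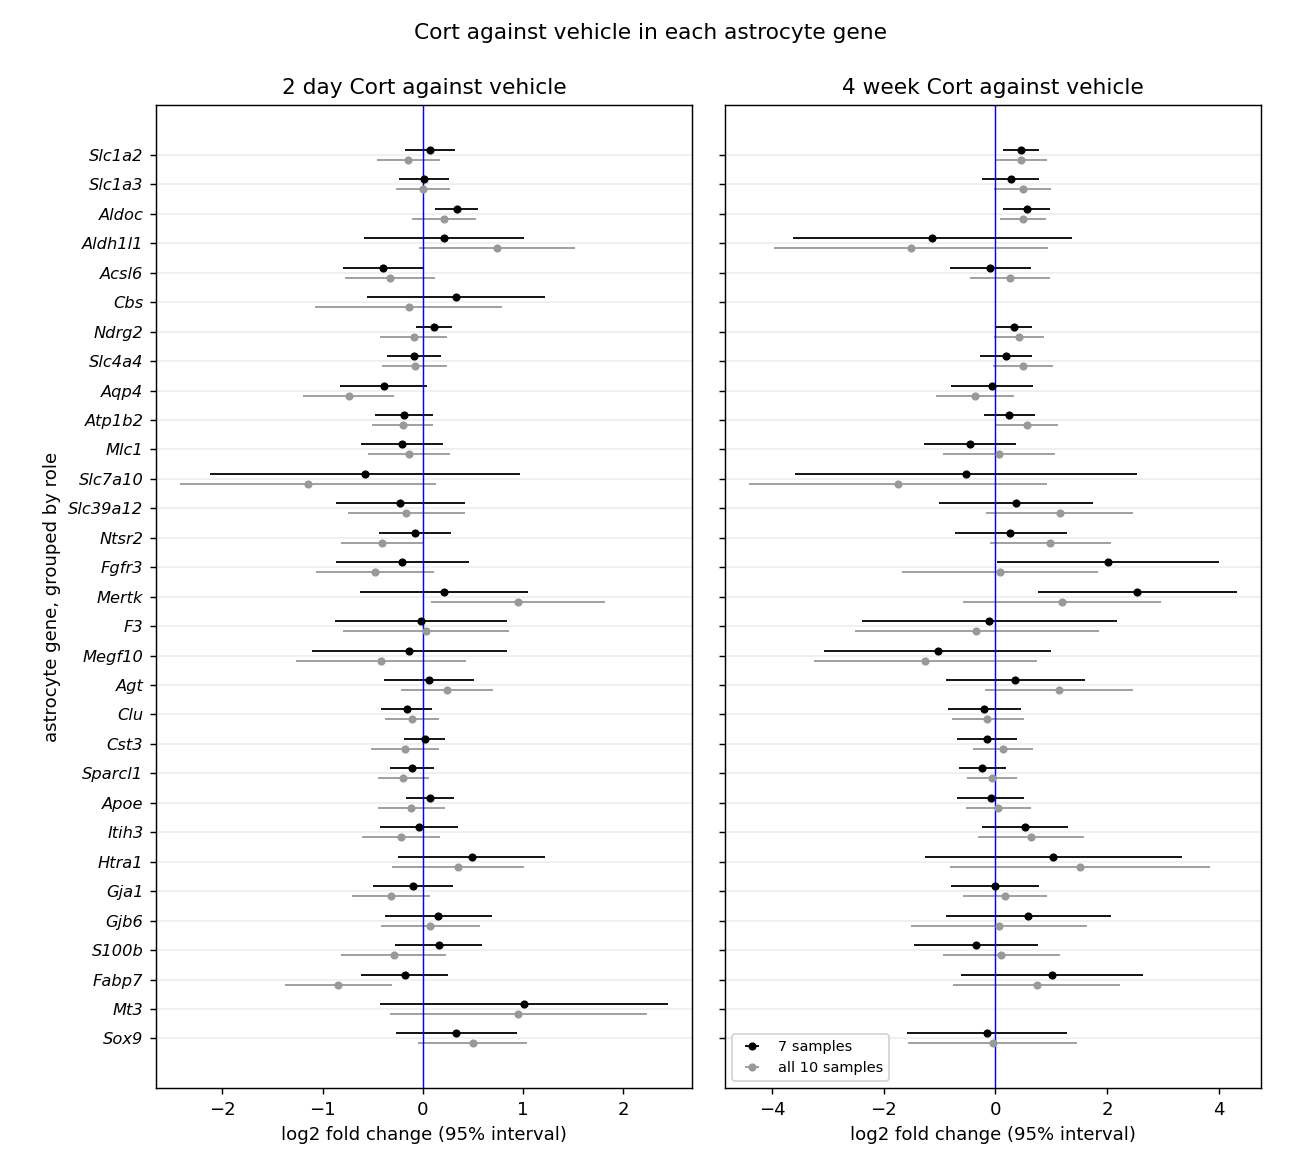
log2 fold change of Cort against vehicle for each astrocyte gene at 2 days (left) and 4 weeks (right), with its 95% interval, by edgeR with the 7 samples kept (black) and with all 10 (grey); the axes of the panels differ in range. Most 2 day intervals are narrow and cross 0, 24 of 31 inside a 2-fold change, and most 4 week intervals are wider, 13 of 29 inside a 2-fold change.

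After 4 weeks of Cort, 29 of the 31 genes passed the filter on low counts, all but Mt3 and Cbs. By edgeR's quasi-likelihood test with Benjamini-Hochberg adjustment 0 of the 29 had a Padj under 0.1 (lowest 0.918), where 0.0446% of 11211 genes passed. DESeq2 with the same samples also called 0 members (lowest Padj 0.113, for Mertk), as did limma voom with quality weights on all 10 samples (lowest Padj 0.895). The study's own DESeq2 test of these samples did place Mertk among the genes higher with Cort, at its threshold of Padj under 0.1. The DESeq2 run here followed the filter on low counts named above, which the study does not name, so Mertk lies near the threshold by that tool. The log2 fold change was above 0 in 16 and below 0 in 13, where 51.9% of all genes were above 0, with a median of 0.196 over the members and 0.038 over all genes. An unadjusted P under 0.05 was found in 5 members, Mertk, Slc1a2, Aldoc, Ndrg2 and Fgfr3, all higher with Cort, where 4.91% of all genes had one in either direction and 2.95% in that direction. In 4 of the 29 members tested, Slc1a2, Aldoc, Fgfr3 and Mertk, every Cort sample lay above every vehicle sample, where 3.23% of all genes did so and 6.53% did not overlap in either direction. The members' intervals were wider than at 2 days, and 13 of the 29 lay inside a 2-fold change. The count depends on the samples and the tool. On all 10 samples 2 members had a P under 0.05 by edgeR (4.90% of all genes did). By limma voom with quality weights on the same 10 samples 7 did, Slc1a2, Aldoc, Fgfr3, Mertk, Atp1b2 and Ndrg2 higher and Aldh1l1 lower, where 557 of 10398 genes did.

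Slc1a2 (chromosome 2, 102658659 to 102790784) was at 2080, 2050 and 1946 CPM in the vehicle samples kept (C02, C03 and C04) and at 3165, 2506, 3341 and 2215 CPM in the Cort samples kept (C07 to C10). Each Cort sample lay above the vehicle samples, C10 by the least. The means were 2025 ± 70.4 CPM (SD, n = 3) and 2807 ± 533.4 CPM (SD, n = 4), and the log2 fold change was 0.46 (SE 0.15, interval 0.13 to 0.78), or 1.38-fold, with Padj = 0.926 by edgeR. The vehicle samples left out were the lowest and among the highest of the 10, 1125 CPM in C01 and 3258 CPM in C05, and Cort C06 was at 3303 CPM. Over all 10 samples it was the same, 0.46, with a wider interval (0.00 to 0.92, Padj = 0.991).

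The second glutamate transporter, Slc1a3, was at 334.8, 358.6 and 396.3 CPM in vehicle and at 357.5, 406.9, 469.5 and 538.9 CPM in Cort. The groups overlapped, and the log2 fold change was 0.28 (interval -0.23 to 0.78), or 1.21-fold. Over all 10 samples Slc1a3 was 1.4-fold higher with Cort (interval 0.986 to 2).

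Aldoc was at 679.4, 735.8 and 711.1 CPM in the vehicle samples kept and at 1347, 1116, 918.4 and 845.0 CPM in Cort. The Cort samples again lay above all vehicle samples, with means of 708.8 ± 28.3 CPM (SD, n = 3) and 1056 ± 224.7 CPM (SD, n = 4). This was a log2 fold change of 0.56 (SE 0.20, interval 0.14 to 0.98), or 1.47-fold, with Padj = 0.98 by edgeR. The samples left out were at 644.4 CPM (vehicle C01), 800.8 CPM (vehicle C05) and 886.8 CPM (Cort C06), so that in all 10 samples the groups still did not overlap, as in 0.942% of all genes. It was then 0.50 on the log2 scale (interval 0.08 to 0.91, Padj = 0.991). Aldoc was thus the one member with a P under 0.05 at both times in the samples kept, and neither value passed the adjustment.

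Ndrg2 was at 1720, 1649 and 2416 CPM in vehicle and at 2389, 2441, 2494 and 2445 CPM in Cort. The 4 Cort samples lay close together, and vehicle C04 lay among them. Its log2 fold change was 0.33 (interval 0.01 to 0.65, Padj = 0.99 by edgeR). It ran from 0.24 without vehicle C03 to 0.53 without vehicle C04 when single samples were left out, and its P stayed under 0.05 without C04 or C07 only. Aldh1l1 was at 15.6, 24.1 and 33.1 CPM in vehicle and at 0.206, 25.2, 2.58 and 16.6 CPM in Cort, with a log2 fold change of -1.13 (interval -3.63 to 1.38) whose interval spans both directions.

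Among the 29 members tested at 4 weeks, the largest fold changes were in a pair of low receptors. Mertk (chromosome 2, 128698956 to 128802894) was at 5.41, 5.63 and 11.2 CPM in the vehicle samples kept and at 25.8, 36.4, 41.7 and 70.4 CPM in Cort. All Cort samples kept lay above the vehicle samples, and the log2 fold change was 2.54 (SE 0.84, interval 0.77 to 4.32, Padj = 0.918 by edgeR). The samples left out went the other way, with 23.0 and 32.3 CPM in vehicle C01 and C05 and 5.67 CPM in Cort C06, and with all 10 the log2 fold change was 1.19 (interval -0.58 to 2.97). Microglia also make Mertk, and the summed level of 10 microglial genes in the samples kept was 262.1 to 416.9 CPM in vehicle and 241.2 to 454.1 CPM in Cort.

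Fgfr3 (chromosome 5, 33721674 to 33737068) was at 2.37, 4.02 and 22.8 CPM in the vehicle samples kept and at 57.6, 26.7, 37.6 and 37.2 CPM in Cort. These groups did not overlap, and the log2 fold change was 2.02 (interval 0.03 to 4.01, Padj = 0.99 by edgeR). When single samples were left out it ran from 1.57 without vehicle C02 to 3.62 without vehicle C04, and the P was no longer under 0.05 without any 1 of C02, C03, C07, C09 and C10. The vehicle samples left out were at 50.5 CPM (C01) and 89.3 CPM (C05), and Cort C06 was at 23.3 CPM. In all 10 samples it came to 0.08 (interval -1.67 to 1.84). An antisense gene lies over 13.9% of the exon bases of Fgfr3, and the counting was not stated to use strand.

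**Figure D4:**
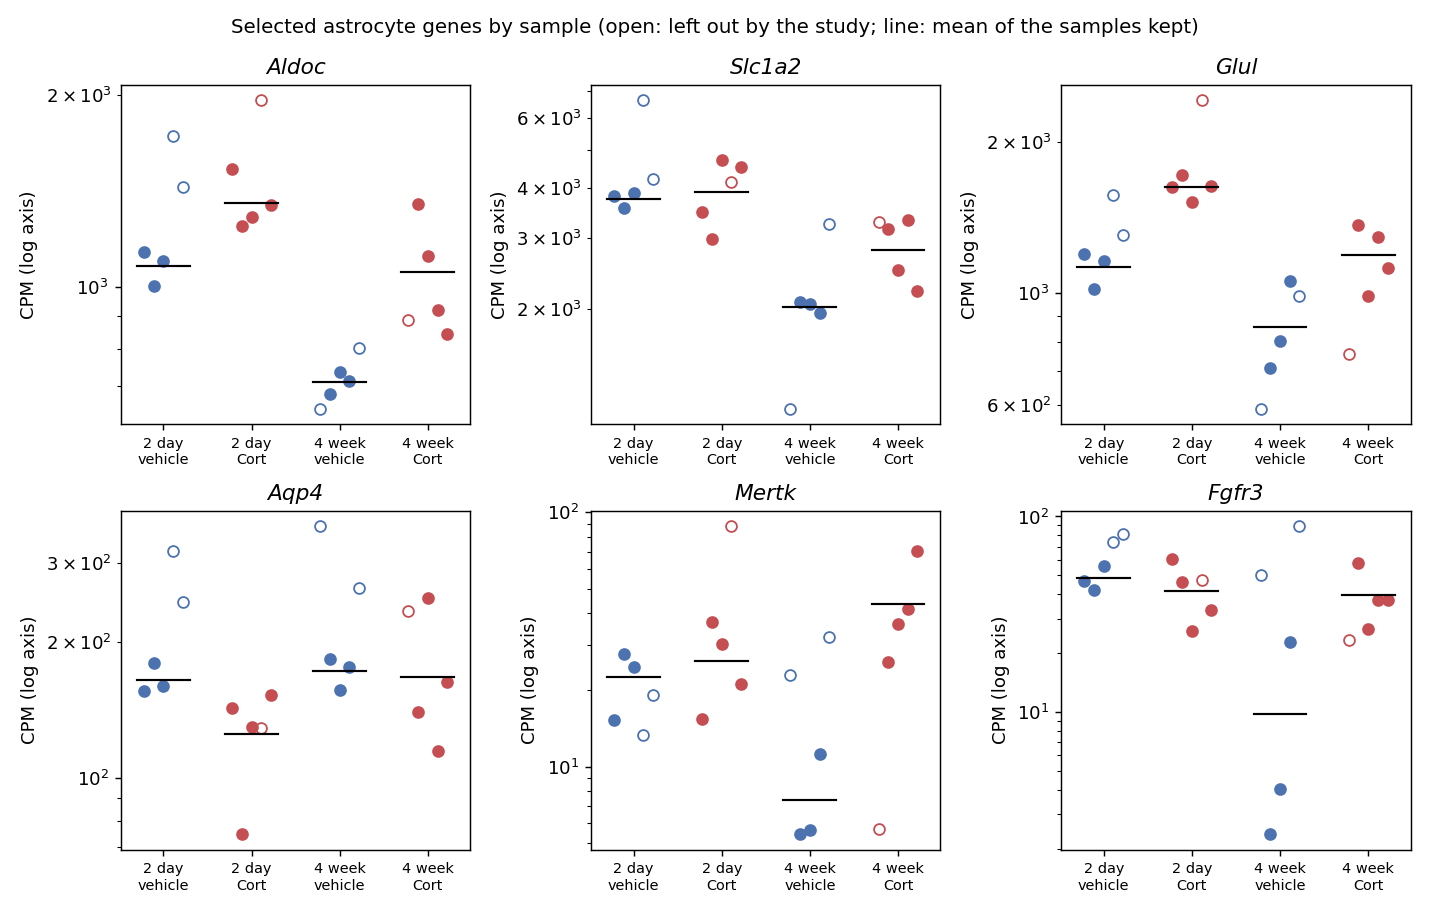
CPM on a log axis in each sample for Aldoc, Slc1a2, Glul, Aqp4, Mertk and Fgfr3, by group, with the samples kept by the study filled, those left out open and the mean of those kept as a line. Among filled points, Cort lies above vehicle without overlap in Aldoc at both times, in Slc1a2, Mertk and Fgfr3 at 4 weeks and in Glul at 2 days; the open points break this in each case but Aldoc at 4 weeks, for Mertk and Fgfr3 with 2 open vehicle points at 23.0 and 32.3 CPM and at 50.5 and 89.3 CPM.

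Aqp4 and Fabp7 had no unadjusted P under 0.05 at 4 weeks, with 7 or with 10 samples. Aqp4 was at 184.0, 156.8 and 176.0 CPM in vehicle and at 139.7, 251.0, 114.4 and 162.9 CPM in Cort, a log2 fold change of -0.06 (interval -0.79 to 0.68). Fabp7 was at 34.5, 34.6 and 16.1 CPM in vehicle and at 50.1, 15.2, 137.6 and 29.5 CPM in Cort. Cort C09 stood above the other samples kept, the groups overlapped, and the log2 fold change was 1.02 (interval -0.61 to 2.64). Atp1b2 was at 847.1, 624.4 and 544.1 CPM in vehicle and 644.5, 962.0, 871.5 and 742.1 CPM in Cort (log2 fold change 0.25, interval -0.21 to 0.71). All 10 samples together, which bring in vehicle C01 at 246.0 CPM, gave 0.56 (interval 0.00 to 1.12, Padj = 0.991 by edgeR).

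Gja1 at 4 weeks was at 120.7, 90.9 and 129.4 CPM in vehicle and at 137.4, 112.1, 114.4 and 94.99 CPM in Cort (log2 fold change 0.00, interval -0.79 to 0.79). S100b was at 43.96, 58.7 and 130.8 CPM in vehicle and at 68.9, 54.8, 76.8 and 47.3 CPM in Cort (log2 fold change -0.34, interval -1.45 to 0.77). Sox9 was at 37.5, 27.7 and 47.9 CPM in vehicle and at 43.5, 20, 25.8 and 48.3 CPM in Cort (log2 fold change -0.14, interval -1.58 to 1.29). The groups overlapped in each of these. The 7 secreted proteins ran from -0.23 for Sparcl1 to 1.04 for Htra1, none with a P under 0.05. Of the members below the filter, Cbs had 0, 0 and 1 counts in the vehicle samples kept and 14, 44, 13 and 7 counts in Cort, with 0 and 14 counts in vehicle C01 and C05 and 0 in Cort C06. Mt3 had at most 9 counts in every 4 week sample except Cort C09, which had 68.

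With all 10 samples of the 4 week dataset, 0 of 29 members passed (lowest Padj 0.991 by edgeR, and 0.00962% of 10398 genes passed). The log2 fold change was above 0 in 21 and below 0 in 8, where 50.5% of all genes were above 0, with a median of 0.176 over the members and 0.010 over all genes. The 2 with a P under 0.05 were Aldoc and Atp1b2, both higher with Cort.

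Whether the response to Cort differed between 4 weeks and 2 days was tested as the interaction of time and treatment. By edgeR's quasi-likelihood test over the 14 samples kept, 0 of 31 members passed a Padj under 0.1 (lowest 0.714), where 0.0157% of 12777 genes did. Of the members, 3 had a P under 0.05, where 6.49% of all genes did, each with a larger log2 fold change at 4 weeks. The difference was 2.34 for Mertk (interval 0.60 to 4.07, Padj = 0.714) and 2.24 for Fgfr3 (interval 0.40 to 4.09, Padj = 0.714). The third was Cbs (Padj = 0.714), for which the 4 week vehicle samples held 0, 0 and 1 counts. For Aldoc the difference was 0.23 (interval -0.21 to 0.68). With all 20 samples 0 members and 0% of 12512 genes passed, and 4 members, Ntsr2, which encodes a neurotensin receptor, Atp1b2, Fabp7 and Slc1a2, had a P under 0.05, where 6.23% of all genes did. No member was in both of these sets, which share 14 samples.

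A second list of 25 astrocyte genes, not among the 31, gave 1 gene that passed at 2 days. Of 24 tested with the 7 samples, 1 rose and 0 fell, where 0.0650% of all genes passed, and the median log2 fold change was -0.071. An unadjusted P under 0.05 by edgeR was found in 1 higher and 2 lower genes (5.97% of all genes had one), and over all 10 samples in 1 higher and 4 lower (5.28%). That gene was Glul (chromosome 1, 153899944 to 153909723), which encodes glutamine synthetase, the enzyme that makes glutamine from the glutamate that Slc1a2 and Slc1a3 take up. It was at 1195, 1020 and 1158 CPM in the vehicle samples kept and at 1627, 1720, 1516 and 1630 CPM in Cort. All Cort samples lay above all vehicle samples, with means of 1124 ± 92.5 CPM (SD, n = 3) and 1623 ± 83.6 CPM (SD, n = 4). Glul rose 1.45-fold, a log2 fold change of 0.54 (SE 0.10, interval 0.33 to 0.75, Padj = 0.042 by edgeR). When all 10 were fitted, among them vehicle C07 at 1569 CPM and Cort C08 at 2416 CPM, the log2 fold change was 0.52 but Padj was 0.744 by edgeR and 0.0364 by limma voom with quality weights. Leaving out any 1 of C01, C02, C03, C04, C05 and C10 also took Padj over 0.1 (0.123 to 0.33 by edgeR). The log2 fold changes were then 0.47 to 0.58. The study itself names Glul among the known glucocorticoid-regulated genes higher with Cort at 2 days, from the same samples. The second list was chosen with earlier results of these data known, so the pass of Glul is not independent of that report.

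At 4 weeks 0 of the 24 genes of the second list tested passed by edgeR or by DESeq2 with the 7 samples, and by edgeR 2 had a P under 0.05, Glul higher and Kcnj10, an inwardly rectifying potassium channel of astrocytes, lower, where 4.91% of all genes had one. Glul was at 711.2, 804.5 and 1055 CPM in vehicle and at 1363, 988.6, 1295 and 1120 CPM in Cort. These overlap, and the log2 fold change was 0.46 (interval 0.05 to 0.88, Padj = 0.99 by edgeR). Side by side, the log2 fold changes of the steps of glutamate handling with the samples kept were 0.07 for Slc1a2, 0.01 for Slc1a3 and 0.54 for Glul at 2 days, and 0.46, 0.28 and 0.46 in the same order at 4 weeks. The difference between times was not past the threshold for Glul (-0.07, interval -0.51 to 0.37) or for Slc1a2 (0.39, interval -0.05 to 0.84).

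Lists of other cell types give what moved beside these values. With the 7 samples at 2 days, 1 of 10 oligodendrocyte genes rose, the myelin gene Mobp (log2 fold change 1.72, Padj = 0.00324 by edgeR, and 0.82 with Padj = 0.936 in all 10 samples), and the oligodendrocyte sum was 391.8 to 495.1 CPM in vehicle and 493.0 to 665.1 CPM in Cort. Sums of microglial genes were 327.6 to 356.7 CPM in vehicle and 413.2 to 472.3 CPM in Cort at 2 days. Those of neuronal genes were 5183 to 5404 CPM in vehicle and 4654 to 5353 CPM in Cort. Over all 10 samples the groups overlapped in each of these sums. Vehicle C07, which was left out, had the highest microglial sum (635.3 CPM) and an oligodendrocyte sum of 756.6 CPM, above every sample kept. None of the tanycyte, ependymal, microglial, endothelial or neuronal genes passed at either time with the 7 samples by edgeR or by DESeq2. By edgeR an unadjusted P under 0.05 was found at 2 days in 2 microglial genes (higher), 1 ependymal gene (lower) and 2 neuronal genes (lower), where 5.97% of all genes had one, and at 4 weeks in 2 of 8 tanycyte genes (lower), 1 microglial gene (higher) and 2 endothelial genes (higher), where 4.91% did. At 4 weeks the endothelial sum was 78.0 to 188.5 CPM in vehicle and 120.6 to 441.5 CPM in Cort, with 7 of its 10 genes at 0 in at least 1 sample. The part of these cell types in the astrocyte values was not tested.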

How the data were processed

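RNA of the laser-captured ARC was amplified by the authors and read as single-end reads of 50 bases, which they mapped to GRCm38 with Rsubread and counted per gene with featureCounts, and they deposited the raw count of 22048 genes in 10 samples per dataset. The submitters' processing notes also name CASAVA 1.7 and DESeq2. The annotation release and the strand setting are not given in the sources used here. The amplification can widen the error of genes with few reads. The authors also deposited normalised tables, of which only the symbols and the signal column of means over the 7 samples kept were used, to check the counts. Their fold changes, standard errors, test statistics and p-values of Cort against vehicle were not used, nor were 14 columns of single samples. Columns were put into groups by the study's own list of samples.

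From the counts, edgeR 4.0.16 (R 4.3.3) was run with filterByExpr, TMM scaling and the quasi-likelihood test, with Benjamini-Hochberg adjustment over all genes tested and a threshold of 0.1, for the 7 samples the study kept and for all 10. Alternatives were DESeq2 1.42.0, limma 3.58.1 voom with quality weights, other scalings and filters, and leaving out each sample. The script was tested on simulated data in which 200 genes were changed by 2 on the log2 scale. At a Padj under 0.1 it recovered 77.5% of them at 2 days and 29% at 4 weeks. Of its calls, 8.82% and 1.69% were wrong. The changed genes were drawn at random from all genes tested, so these shares are not those of the members. A gene not called at 4 weeks can still have changed by that much where its 95% interval is wide enough. For 13 of the 29 members tested at 4 weeks the interval lay inside a 2-fold change. CPM precision follows the count, and 3 counts correspond to 0.512 to 2.75 CPM. The members and gene lists were chosen with earlier results of these data known. Members are given with the values of the samples kept where P was under 0.05 in either dataset by edgeR with 7 or 10 samples, or where they are standard markers (Slc1a2, Slc1a3, Aldoc, Aqp4, Gja1, Aldh1l1, S100b and Sox9). Others are given by range. Acsl6, Ntsr2, Cst3 and the other members named for a count, a level or an extreme were chosen after their values were seen, as was Kcnj10. Exon lengths are from GENCODE vM21, promoters from RefSeq GRCm38.p6.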

Additional observations from a re-analysis of the deposited data

Results flagged for a closer look

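Among 56 groups of 5 samples (13 astrocyte genes and the sum of the 31 in each of 4 groups), 3 had 1 sample far from the other 4 by Dixon's ratio at the 95% level, where chance gives about 1 in 20. Slc1a2 was at 6641 CPM in 2 day vehicle C07, against 3572 to 4212 CPM in the other vehicle samples. Fabp7 was at 137.6 CPM in 4 week Cort C09, against 15.2 to 50.1 CPM. Ndrg2 was at 3781 CPM in 4 week Cort C06, against 2389 to 2494 CPM. C07 and C06 are among the samples the study left out, and C09 is not.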

How the results depend on the processing

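The study names no pairs of vehicle and Cort mice, so the replicate numbers of the labels are not known to mark pairs. No paired analysis was possible in any case, because the count columns carry no replicate number of the labels. With the other tools, scalings, filters and sample sets that were run, 0 members passed a Padj under 0.1. Values under each alternative were kept for the members with an unadjusted P under 0.05 in that dataset by edgeR with 7 or 10 samples. Of these 149 values, 147 kept their direction and stayed above the threshold. The 2 that turned were Mertk at 2 days, at -0.01 without C02 and at -0.01 without C03. Its range over the samples left out was -0.01 to 0.4 (0.21 with all 7). Other members were not in this count, and some turned between the 7 and the 10 samples by edgeR. At 2 days the fold change went from 1.05 to 0.901 in Slc1a2, 1.12 to 0.818 in S100b and 1.08 to 0.94 in Ndrg2. At 4 weeks S100b went from 0.79 to 1.08. Genes with a Padj under 0.1 numbered 8 at 2 days with 7 samples and 54 by DESeq2, 24 without a filter, 2 with all 10 samples, 4 with all 10 and voom weights, and 1 to 16 when single samples were left out. At 4 weeks they numbered 5, and 43 by DESeq2, 3 with upper quartile scaling, 9 without a filter, 1 with all 10 samples (2 of these 10 without C01, chosen after seeing the data), and 0 to 10 when single samples were left out. Members with P under 0.05 numbered 1 at 2 days, and 2 by DESeq2, 2 with upper quartile scaling, 3 with all 10 samples, 3 with voom weights, and 1 to 3 when single samples were left out, the most without C10. At 4 weeks they numbered 5, and 4 by DESeq2, 3 with upper quartile scaling, 4 without a filter, 3 with at least 10 counts in every sample, 2 with all 10 samples (1 without C01), 7 with all 10 and voom weights, and 3 to 6 when single samples were left out, with 3 without C02, C03, C09 or C10. The median log2 fold change of the members at 4 weeks was 0 without C09 and 0.29 without C04. Genes past the threshold for the interaction numbered 2, and 0 with all 20 samples. Depth limits Cbs, Mt3, Slc7a10, Htra1 and Aldh1l1 at 4 weeks, each at 0 in at least 1 sample.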
